A study of Homo sapiens with 6 samples.

Results

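The late sterol pathway enzymes close the rings of the sterol from a squalene derivative and turn the product into cholesterol. Measured here were the transcripts of 9 of them, LSS, CYP51A1, TM7SF2, MSMO1, NSDHL, HSD17B7, EBP, SC5D and DHCR7, picked out of the table by gene symbol and given in pathway order. They are 9 of 56638 rows of the count table, and all 9 passed the filter on low counts. The cells were MOLM-13, a leukaemia cell line long in use, set up from human acute myeloid leukaemia with monocytic features. Poly(A) RNA was sequenced from 3 libraries of cells kept for 24 h in 2 µM UC-764864 and 3 libraries of cells given DMSO, the solvent. The series title says that the compound inhibits UBE2N, an enzyme that joins ubiquitin chains. The sample labels shorten it to UC64, and the series design text writes it UC-744864. Both groups are the same line, no genetic change is named for either, and the comparison asks which transcripts differ after the compound. The labels name no separate cultures, so p-values cover only the spread between these libraries, which may be technical.

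Cholesterol synthesis from lanosterol runs in the endoplasmic reticulum. LSS closes the rings, CYP51A1 and TM7SF2 remove a methyl group and the double bond that this leaves, MSMO1, NSDHL and HSD17B7 act in turn to strip a pair of further methyl groups, and EBP, SC5D and DHCR7 place and remove the double bonds of the second ring. When sterols in that membrane run low, the factors SREBP2 and SREBP1 are released, travel to the nucleus and raise transcription of most genes of the pathway, usually together with NF-Y, which binds CCAAT boxes, and SP1. Intermediates of the late steps are signals of their own.

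RefSeq promoter windows of 300 bases, 250 before and 50 after a start site (GRCh38.p14), were found for all 9 genes, 11 windows in total because SC5D and DHCR7 have 2 each. The 250 upstream bases of 4 genes are shown because they span the results: MSMO1 and SC5D had the largest falls, LSS a smaller one, and NSDHL none that passed. They are printed in lower case, 5′ to 3′ on the gene's strand, and capitals mark CCAAT or its reverse complement ATTGG.
MSMO1 (chr4:165327419-165327668, plus strand): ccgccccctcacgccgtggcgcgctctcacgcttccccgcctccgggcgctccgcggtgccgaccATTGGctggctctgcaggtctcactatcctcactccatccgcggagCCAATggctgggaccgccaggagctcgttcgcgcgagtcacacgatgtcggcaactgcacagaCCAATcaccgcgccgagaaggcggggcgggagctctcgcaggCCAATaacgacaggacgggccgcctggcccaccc
SC5D (chr11:121292521-121292770, plus strand): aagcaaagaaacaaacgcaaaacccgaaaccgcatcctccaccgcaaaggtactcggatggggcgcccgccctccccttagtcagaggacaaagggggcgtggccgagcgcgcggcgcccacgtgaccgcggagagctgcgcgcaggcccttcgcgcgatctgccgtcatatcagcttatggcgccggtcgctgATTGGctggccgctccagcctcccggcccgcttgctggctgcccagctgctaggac
LSS (chr21:46228775-46229024, minus strand): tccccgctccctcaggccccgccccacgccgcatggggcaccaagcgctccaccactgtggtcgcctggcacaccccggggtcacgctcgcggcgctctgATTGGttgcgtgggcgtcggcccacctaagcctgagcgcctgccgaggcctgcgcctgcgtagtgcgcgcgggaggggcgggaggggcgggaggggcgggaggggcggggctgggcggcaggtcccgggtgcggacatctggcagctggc
NSDHL (chrX:152830813-152831062, plus strand): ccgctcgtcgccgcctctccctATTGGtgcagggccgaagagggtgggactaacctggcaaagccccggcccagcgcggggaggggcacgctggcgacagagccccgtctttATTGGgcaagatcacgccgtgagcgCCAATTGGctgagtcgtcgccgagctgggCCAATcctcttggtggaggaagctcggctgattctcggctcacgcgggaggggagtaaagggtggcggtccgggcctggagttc
The letters of 4 motifs were searched on both strands of every 300-base window. CCAAT was present in 9 of the 11 windows and in 8 of the 9 genes, against 34.6% of all 35116 windows in the table, and CYP51A1 was the gene without it. MSMO1 held 4 matches and NSDHL 5, where 2 of the 5 overlap, while LSS held 1, as did each of the 2 overlapping windows of SC5D. GGGCGG, the SP1 box, was in 9 of the 11 windows, against 45.0% of all windows. The sterol regulatory element pattern TCACNCCAC and the SREBP E-box TCACGTGA were in 0 of the 11 windows, against 1.13% and 0.98% of all windows. At shares that low, 0 of 11 cannot set these genes apart from others, and variants of these letters were not searched. These matches describe letters in the windows and not bound sites, and MSMO1 and NSDHL, which hold the most CCAAT matches among the 4 shown, differed in response.

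Libraries held 16136156 to 25014437 counts, and pairs within a group differed by a chi-square of 4.4 to 41.0 per degree of freedom, so none was a repeat of another. Pairs between groups differed by 17.8 to 78.8, which overlaps that range. The lowest of them, UDI0053 with UDI0055, lay below every pair of DMSO libraries (18.3 to 41.0). Treated and control libraries were separated along the leading axis of a principal component analysis, whose share was 56.2%. Scores there were −31.5, −18.5 and −21.4 for UDI0051, UDI0052 and UDI0053 (UC-764864). For UDI0054, UDI0055 and UDI0056 (DMSO) they were 21, 8.66 and 41.8. Libraries UDI0052 (UC-764864) and UDI0056 (DMSO) stood apart on the second principal component, which held 20.4% of the variance. Genes with a GC content over 60% took 8.59% and 8.78% of their counts, against 10.4% to 12% in the others. DMSO library UDI0055 holds 0 in 3799 rows in 2 unbroken runs, read as missing values. The runs hold the X-linked genes, NSDHL and EBP among them, so these 2 genes rest on the other 5 libraries. The summed level of 10 myeloid markers was 6534 to 7564 CPM (counts relative to scaled library size) after UC-764864 and 4328 to 4665 CPM after DMSO, with 2 of the 10 lower and 1, LYZ, higher. LYZ alone held 5326 to 6331 CPM after UC-764864 and 3055 to 3295 CPM after DMSO, so this gene carries most of the sum. Of the 10 markers, 6 had a log2 fold change below 0, and the median was −0.13. The 5 lymphoid markers summed to 1.23 to 1.74 against 1.88 to 2.61 CPM with MS4A1 at 0, 2 erythroid markers held by all libraries to at most 0.0442 CPM, and 4 epithelial and stromal markers to 16.1 to 17.1 against 12.7 to 17.5 CPM. CD3D was lower after the compound (0.507 against 1.09 CPM, 7 to 26 counts a library, edgeR adjusted p = 0.0358). Whether any lymphoid cells were present, or had a part in the results, was not tested.

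After UC-764864, 5 of the 7 late enzymes that all 6 libraries hold fell and none rose. The falls ranged from 1.44-fold for DHCR7 to 3.85-fold for MSMO1. In the quasi-likelihood test of edgeR, with Benjamini-Hochberg adjustment over 13490 genes and a threshold of 0.05, 8.13% of all genes were called lower and 5.11% higher. Rises were 38.6% of all calls, 28.6% when library size was the only scaling and 51.0% when each library's GC trend was removed. Removal of GC trends covered only the 11653 genes with a known GC content. At an unadjusted p under 0.05, 6 of the 7 were lower and 0 higher, and DESeq2 called 5 lower and 0 higher. The 2 groups did not overlap, UC-764864 being lower, for 6 of the 7, against 17.0% of all genes tested. The median log2 fold change (UC-764864 over DMSO) was −0.62 for the 7 and 0.01 for all genes. In RNA of a whole culture, fewer cells with a transcript and less of it per cell cannot be told apart.

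**Figure D1:**
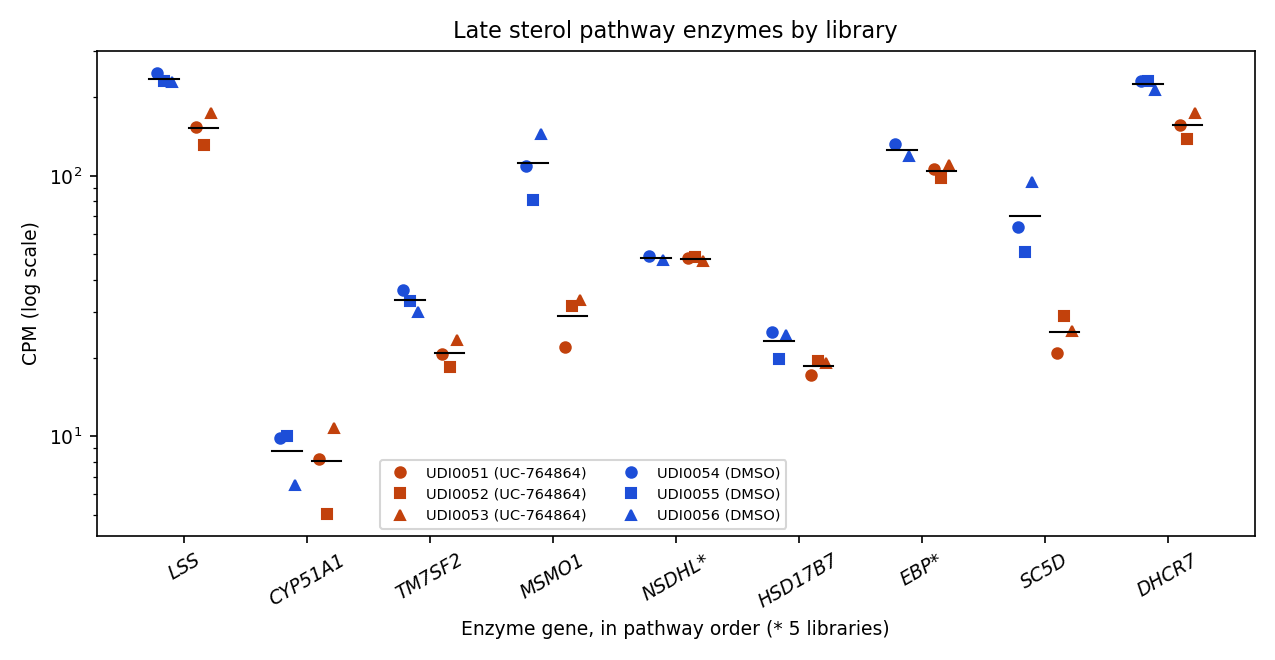
Level of the 9 late sterol pathway genes in each library, in CPM on a log axis, with DMSO libraries in blue, UC-764864 libraries in orange and a bar at each group mean. NSDHL and EBP have 5 libraries, and MSMO1 and SC5D show the widest gap between groups, at 3.85-fold and 2.78-fold.

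LSS, the cyclase that forms lanosterol, stood at 154, 131 and 175 CPM in UC-764864 libraries UDI0051, UDI0052 and UDI0053, and at 248, 230 and 228 CPM in DMSO libraries UDI0054, UDI0055 and UDI0056. Every treated library lay below every control, and the DMSO libraries were close to each other, with a coefficient of variation of 4.75%. The level went from 236 ± 11.2 to 153 ± 22.03 CPM (SD, n = 3 per group), a log2 fold change of −0.62 ± 0.13 (SE; edgeR adjusted p = 0.0126). The call missed the threshold without UDI0051 (adjusted p = 0.0576) and without UDI0054 (adjusted p = 0.0570), with log2 fold changes of −0.62 and −0.58. An antisense gene, AP001468.1, covers 6.19% of the exonic bases of LSS in GENCODE 29 and had 18 to 58 counts, against 2019 to 5624 for LSS.

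CYP51A1, the cytochrome P450 that demethylates lanosterol, gave no call. Its values were 8.20, 5.05 and 10.8 CPM after UC-764864 and 9.90, 10.0 and 6.52 CPM after DMSO, and the groups overlapped over most of their range. The log2 fold change was −0.14 with a 95% interval from −0.68 to 0.40 (adjusted p = 0.732), an interval that holds the values of LSS, TM7SF2 and DHCR7. Without UDI0052 it was 0.06. The gene rested on 78 to 245 counts per library, the fewest of the 9. In GENCODE 29, which is not the annotation of the count table, 79.4% of its exonic bases also lie in another protein-coding gene model on the same strand. That model has no row under its name among those analysed here, and whether the overlap touched the counting was not tested.

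TM7SF2, a sterol reductase of the step after CYP51A1, was at 20.7, 18.5 and 23.4 CPM with the compound and at 36.5, 33.2 and 30.1 CPM without it. No treated library reached the lowest control. It fell by 0.67 ± 0.14 on the log2 scale, from 33.2 ± 3.23 to 20.9 ± 2.46 CPM (adjusted p = 0.0125). As for LSS, the call was lost without UDI0051 or UDI0054 (adjusted p = 0.0596 and 0.0595). LBR, a nuclear membrane protein with the same reductase activity, fell by 0.51 ± 0.13 (adjusted p = 0.0258). The LBR call was lost without UDI0051 or UDI0053 (adjusted p = 0.143 and 0.0967), and removal of GC trends left −0.21 (adjusted p = 0.0834).

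MSMO1, the monooxygenase that starts removal of the methyl groups next to the sterol hydroxyl, had the largest fall of the 9. The treated libraries held 22.1, 31.5 and 33.5 CPM, and the controls 109, 81.0 and 145 CPM. The lowest control was more than the highest treated library by a wide margin, though the controls themselves ranged over 1.79-fold. With a log2 fold change of −1.95 ± 0.21, to 26.0% of the DMSO level, it ranked 41 from the lowest of 13490 genes. The adjusted p was 0.00133.

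NSDHL, the dehydrogenase that acts on the product of MSMO1, stayed within a narrow band. It was at 48.2, 48.7 and 47.0 CPM in the treated libraries and at 49.3 and 47.6 CPM in DMSO libraries UDI0054 and UDI0056, and the groups overlapped. The log2 fold change was −0.02 with a 95% interval from −0.28 to 0.25 (edgeR fit of 5 libraries, adjusted p = 0.939). That interval leaves out the values of LSS, TM7SF2, MSMO1, SC5D and DHCR7 in the same fit. Removal of each library's GC trend gave −0.18, which passed (adjusted p = 0.0431).

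HSD17B7, the ketoreductase that ends the demethylation cycle, was at 17.2, 19.4 and 19.1 CPM after UC-764864 and at 25.1, 19.8 and 24.6 CPM after DMSO. The groups did not overlap, but UDI0055 lay just above the highest treated library. A log2 fold change of −0.32 ± 0.14 did not pass in the 6 libraries (adjusted p = 0.134). Without UDI0055 it was −0.45 ± 0.13 and passed (adjusted p = 0.0314 in the fit of 5 libraries), and that call was lost again without UDI0051, UDI0053, UDI0054 or UDI0056 (adjusted p = 0.170, 0.0996, 0.0703 and 0.0895). HSD17B7P2, a pseudogene that is a close copy and may share reads, was at 3.75 ± 0.294 against 5.88 ± 1.29 CPM, a log2 fold change of −0.64 ± 0.20 (adjusted p = 0.0514). The pseudogene passed in DESeq2, without GC trends, without UDI0055, unfiltered, and under either other scaling (adjusted p from 0.00843 to 0.0476).

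EBP, the isomerase that shifts the double bond of the second ring, was at 106, 98.1 and 110 CPM with the compound and at 133 and 119 CPM in the 2 controls that hold it. Treated libraries were all lower, as they were for 26.3% of all genes in the fit of 5 libraries. The log2 fold change was −0.27 with a 95% interval from −0.52 to −0.01, and it did not pass after adjustment over 14186 genes (adjusted p = 0.119). It passed without UDI0052 and UDI0056 at −0.30 (adjusted p = 0.00763), where 1 DMSO library is left and is assumed to vary like the others, and after GC trends were removed, at −0.44 (adjusted p = 9.81e-05). Its paralog EBPL had a log2 fold change of −0.33 ± 0.11 and did not pass in 6 libraries (adjusted p = 0.0659). That gene passed when library size was the only scaling (adjusted p = 0.0410), after removal of GC trends (6.44e-04) and in DESeq2 (0.0257).

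SC5D, the desaturase that acts after EBP, showed the second largest fall. The values were 20.8, 29 and 25.4 CPM in treated libraries and 63.4, 51.1 and 94.95 CPM in controls, with no overlap. Its log2 fold change was −1.48 ± 0.21, to 35.9% of the DMSO level (adjusted p = 0.00357). UDI0056 was the highest control for both SC5D and MSMO1, and UDI0055 the lowest for both. MSMO1 and SC5D also have the lowest GC content of the 9 transcripts, 38.1% and 38.6%. With each library's GC trend removed they changed by −1.64 and −1.20 and still passed (adjusted p = 1.68e-05 and 5.38e-05).

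DHCR7, the reductase that yields cholesterol on one branch of the pathway, went from 230, 232 and 213 CPM in controls to 156, 138 and 174 CPM in treated libraries. The groups were apart by more than the spread within either. Its log2 fold change was −0.53 ± 0.12 (adjusted p = 0.0174), and it missed the threshold without UDI0051 (adjusted p = 0.0915) or UDI0054 (adjusted p = 0.0726). LSS, TM7SF2 and DHCR7 shared the order of libraries within the UC-764864 group, with UDI0052 lowest and UDI0053 highest. In all 3 genes UDI0056 was the lowest control, the reverse of MSMO1 and SC5D. Their GC contents were 58.3%, 64.2% and 58.3%. CYP51A1, at 41.5% GC, had the same lowest and highest treated libraries and the same lowest control, so this order was not limited to transcripts of high GC.

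**Figure D2:**
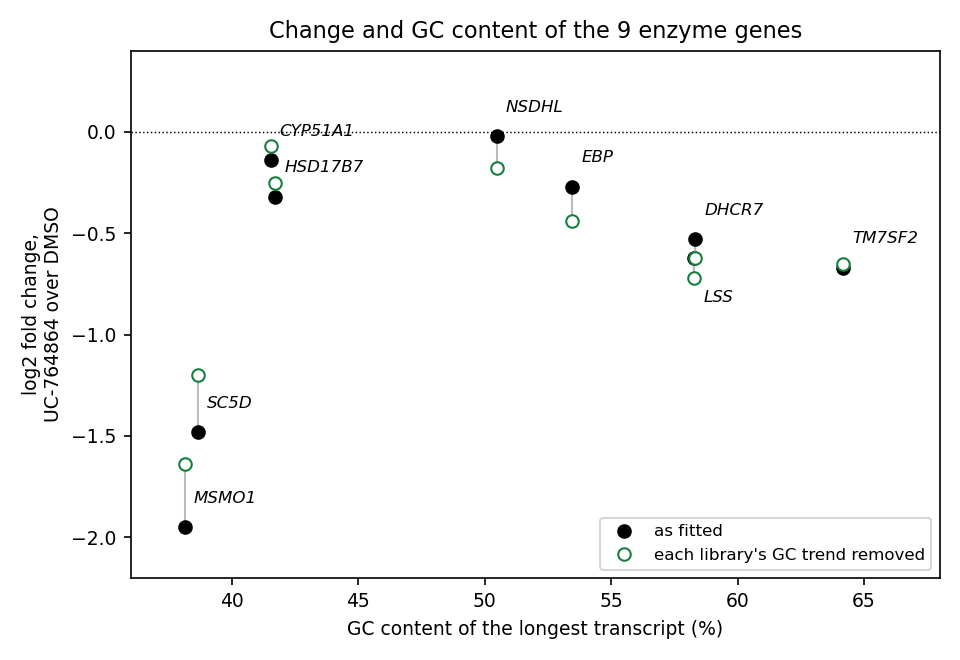
Log2 fold change of each of the 9 genes (UC-764864 over DMSO) against the GC content of its longest transcript in percent, as fitted (black) and with each library's GC trend removed (open circles). The falls of MSMO1 and SC5D were smaller after removal, −1.64 and −1.20, and those of NSDHL and EBP larger, −0.18 and −0.44.

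The fit without UDI0055 sets all 9 enzymes side by side. In it 6 of 9 fell and none rose, where 13.9% of all genes were called lower and 9.88% higher. At an unadjusted p under 0.05, 7 were lower and 0 higher, and DESeq2 called 6 lower and 0 higher. MSMO1 changed by −2.16 ± 0.18 and SC5D by −1.68 ± 0.19, and LSS, TM7SF2 and DHCR7 by −0.66, −0.70 and −0.53. The estimates of EBP, CYP51A1 and NSDHL were −0.27, −0.07 and −0.02, and these 3 did not pass.

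**Figure D3:**
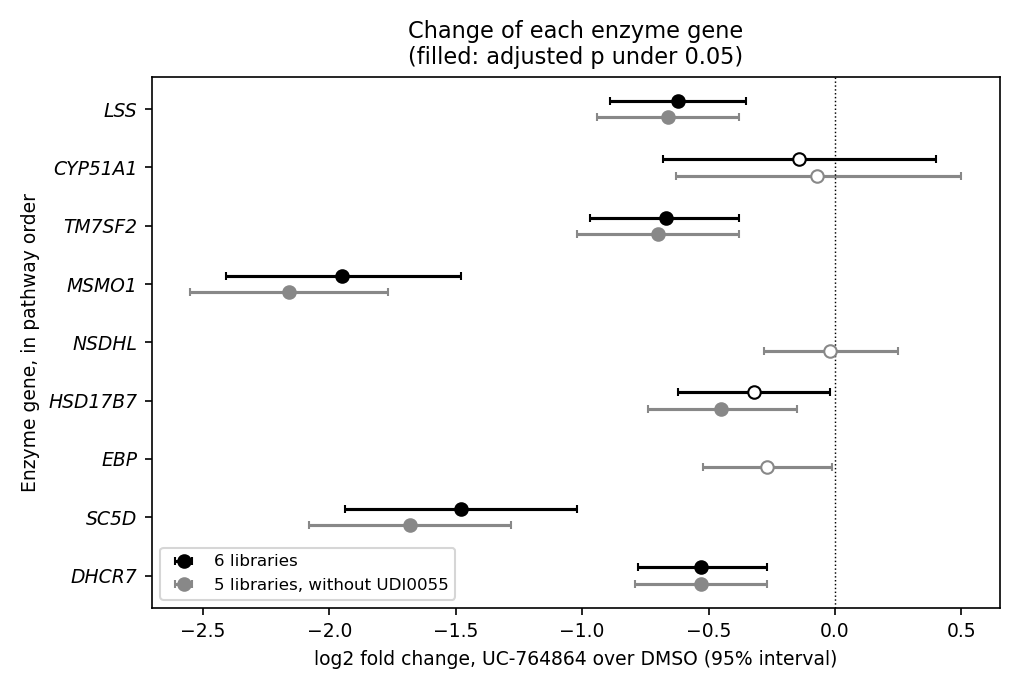
Log2 fold change (UC-764864 over DMSO) of each gene with its 95% interval, from the fit of 6 libraries (black) and of 5 libraries without UDI0055 (grey), with filled points for adjusted p under 0.05. MSMO1 and SC5D lie farthest to the left, and the intervals of CYP51A1 and NSDHL hold 0.

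Whether the enzymes changed unequally was asked within libraries, where depth cancels, by taking each gene's counts as a percentage of the LSS counts of the same library. This comparison was chosen after the values had been seen. GC differences between libraries do not cancel in it, as LSS is at 58.3% GC, MSMO1 at 38.1% and SC5D at 38.6%. With each library's GC trend removed, LSS changed by −0.72, MSMO1 by −1.64 and SC5D by −1.20. As fitted these changes were −0.62, −1.95 and −1.48, so the gaps to LSS were smaller after removal. MSMO1 counts were 14.3%, 24.1% and 19.2% of LSS counts in the treated libraries and 44.0%, 35.2% and 63.7% in the controls. The groups did not overlap, and the log2 ratio was lower by 1.30 after UC-764864, −2.41 ± 0.38 against −1.11 ± 0.43 (SD, n = 3 per group). A two-sided exact permutation test gave p = 0.1, the smallest that 3 against 3 libraries can give, and 0.267 after adjustment over the 8 genes compared with LSS.

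SC5D went the same way relative to LSS, at 13.5%, 22.2% and 14.5% against 25.5%, 22.2% and 41.6%. Treated UDI0052 and control UDI0055 were nearly level there, and the mean log2 ratio differed by −0.81 (exact permutation p = 0.1). NSDHL went the other way, from 21.5% and 22.6% of LSS counts in controls to 34.5%, 40.4% and 29.97% after the compound, a difference of 0.65 in log2 ratio (exact permutation p = 0.2, the smallest for 3 against 2). EBP behaved alike, with 58.0% and 56.4% against 76.0%, 81.3% and 70.1% (0.40, exact permutation p = 0.2). HSD17B7 was at 11.2%, 14.9% and 10.9% of LSS after the compound and at 10.1%, 8.62% and 10.8% in controls, without overlap (0.31, exact permutation p = 0.1). Treated UDI0053 and control UDI0056 were nearly level for it. LSS itself fell, so a gene that fell less takes a higher share of LSS counts without a rise of its own. HSD17B7 changed by −0.32 and LSS by −0.62 in the 6 libraries. NSDHL, EBP and LSS changed by −0.02, −0.27 and −0.66 in the fit of 5 libraries. CYP51A1 ratios overlapped, with a difference of 0.45 (exact permutation p = 0.3). TM7SF2 kept to 13.2% to 14.7% of LSS in all 6 libraries, and DHCR7 to 92.7% to 106%. These ratios differed by −0.05 and 0.10 between groups, which overlapped (exact permutation p = 0.4 and 0.2).

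**Figure D4:**
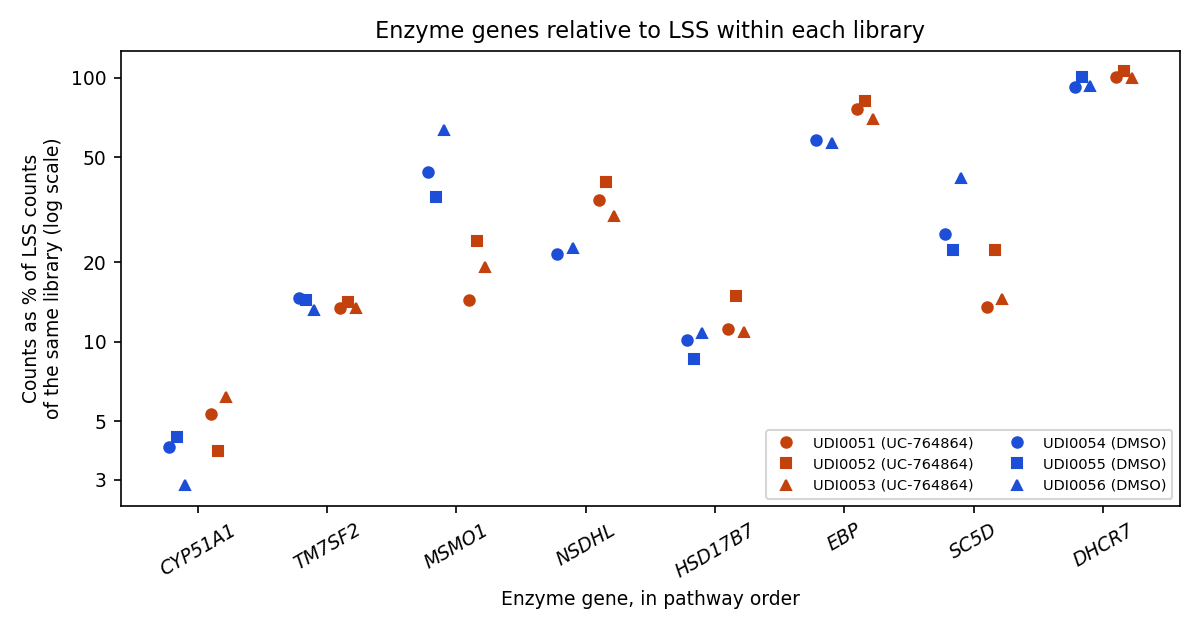
Counts of 8 late enzymes as a percentage of the LSS counts of the same library, on a log axis, with DMSO in blue and UC-764864 in orange. MSMO1 and SC5D are lower in the treated libraries, NSDHL, EBP and HSD17B7 higher, CYP51A1 and DHCR7 overlap, and TM7SF2 stays between 13.2% and 14.7%. LSS itself fell after the compound, so a higher percentage does not mean a higher level. Counts are as deposited, with no GC trend removed.

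Levels can be compared between genes only per length, so CPM of the 5 libraries were divided by exon length in kilobases from GENCODE 29 (RPKM). That length joins the exons of all transcripts of a gene, so exons that these cells do not use lower its value. Which exons were in use was not tested, and the order of genes depends on it. In DMSO the order was EBP at 52.3 ± 4.11, DHCR7 at 49.2 ± 2.65, MSMO1 at 40.7 ± 8.21, LSS at 30.4 ± 1.77 and NSDHL at 24.3 ± 0.601 RPKM (SD, n = 2). Below these came SC5D at 10.5 and 15.8 in its 2 libraries, TM7SF2 at 9.02, HSD17B7 at 4.81 and CYP51A1 at 2.12 RPKM. The CYP51A1 value carries the untested overlap with another gene model given above. EBP and DHCR7 overlapped in their libraries, and the other neighbours were apart in these 2 controls. The control left out, UDI0055, went against part of this order. On the scale of 6 libraries MSMO1 was at 28.01 and LSS at 31.8 RPKM in it, and SC5D was at 9.17 and TM7SF2 at 9.74 RPKM, so neither pair is apart over all 3 controls. After UC-764864, EBP and DHCR7 still led with 43.5 ± 2.51 and 34.1 ± 3.44 RPKM (SD, n = 3). NSDHL came next at 24.0 ± 0.435 RPKM, ahead of LSS at 19.2 ± 2.50 RPKM. MSMO1 was at 9.13 ± 1.91 RPKM, below LSS in each treated library, and SC5D, at 3.39 to 4.81 RPKM, overlapped HSD17B7, at 3.26 to 3.75 RPKM.

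Other genes of sterol synthesis were taken from 4 lists of 29 genes, 28 of them tested and FAXDC2 too low to test. In the 6 libraries 13 of the 28 fell and 0 rose (edgeR; 17 and 3 at an unadjusted p under 0.05, and 15 and 0 with DESeq2). Of 9 early enzymes, which lead from acetyl-CoA to the farnesyl and geranylgeranyl chains, 7 fell and none rose (1 higher at an unadjusted p under 0.05, none with DESeq2). The median was −0.51. IDI1, the isomerase of the isoprene unit, fell by 1.37 ± 0.21 on the log2 scale and HMGCS1, which makes the precursor of mevalonate, by 1.13 ± 0.20 (adjusted p = 0.00487 and 0.00824). Both repeated the order of controls seen for MSMO1 and SC5D, IDI1 with 363, 272 and 514 CPM and HMGCS1 with 651, 504 and 906 CPM in UDI0054, UDI0055 and UDI0056. MVD, the decarboxylase, fell by 0.90 ± 0.14 (adjusted p = 0.00487).

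The kinase gene MVK fell by 0.51 ± 0.12 (adjusted p = 0.0241), the thiolase gene ACAT2 by 0.49 ± 0.14 (0.0386) and the chain-elongating FDPS by 0.44 ± 0.12 (0.0319). Leaving out UDI0051, or UDI0053, or UDI0054 ended each of these 3 calls (adjusted p from 0.0534 to 0.192). MVK and FDPS were also lost without UDI0052 (0.0527 and 0.0654), and ACAT2 without UDI0056 (0.0727). PMVK, the phosphomevalonate kinase, had a log2 fold change of 0.33 ± 0.15 (adjusted p = 0.157), and GGPS1, which feeds protein prenylation, one of −0.22 ± 0.14 (0.295). Without the GC trends PMVK passed at 0.27 (adjusted p = 0.0385).

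Among 5 paralogs and partners of late enzymes, 4 were tested, and LBR and C14orf1 fell. C14orf1 encodes ERG28, a scaffold of the demethylation enzymes, and went from 74.8 ± 6.64 to 50.03 ± 5.62 CPM (−0.58 ± 0.13, adjusted p = 0.0163). That call was lost without UDI0051 or UDI0054 (adjusted p = 0.0982 and 0.0664). The 6 genes for electron donors and partners of the oxidative steps gave no call, none lower and none higher (edgeR; 1 lower and 0 higher at an unadjusted p under 0.05, 0 and 0 with DESeq2). PGRMC2, a heme-binding partner of cytochromes P450, had a log2 fold change of −0.34 ± 0.13 (adjusted p = 0.112), and it passed without the GC trends at −0.45 (0.00514). CYB5R3 and CYB5B, which pass electrons to the desaturase and the monooxygenase, were at 0.27 ± 0.17 and −0.13 ± 0.10 (adjusted p = 0.295 and 0.425).

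Of 9 genes of SREBP control 4 fell and none rose (2 higher at an unadjusted p under 0.05, none with DESeq2), with a median of −0.41. INSIG2, which holds SREBP in the endoplasmic reticulum, went from 29.1 ± 5.76 to 12.5 ± 2.53 CPM (−1.21 ± 0.19, adjusted p = 0.00451). Without the GC trends INSIG2, at 35.4% GC, changed by −0.75 (adjusted p = 5.97e-04). Its relative INSIG1 changed by −1.12 ± 0.15 (adjusted p = 0.00299). RNF139 and MARCH6, membrane ubiquitin ligases of sterol-regulated degradation, fell by 1.00 ± 0.13 and 0.42 ± 0.12 (adjusted p = 0.0025 and 0.0391). MARCH6 missed the threshold without UDI0051, UDI0052, UDI0053, UDI0054 or UDI0056 (adjusted p from 0.0683 to 0.198) and after GC trends were removed (−0.23, 0.0571). The genes for the factors themselves did not pass, SREBF2, named outside the rule for its role, at −0.18 ± 0.12 (adjusted p = 0.336) and SREBF1 at −0.41 ± 0.18 (0.136). Without the GC trends both passed, at −0.29 (adjusted p = 0.00995) and −0.42 (0.00162). SREBF1 also passed when no filter was used (0.0210), when UDI0056 was left out (0.0315) or when UDI0052 went as well (0.0360). MBTPS1, a protease that releases SREBP, was at 0.36 ± 0.13 (adjusted p = 0.0757). It passed as higher without UDI0055 (adjusted p = 0.0208).

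**Figure D5:**
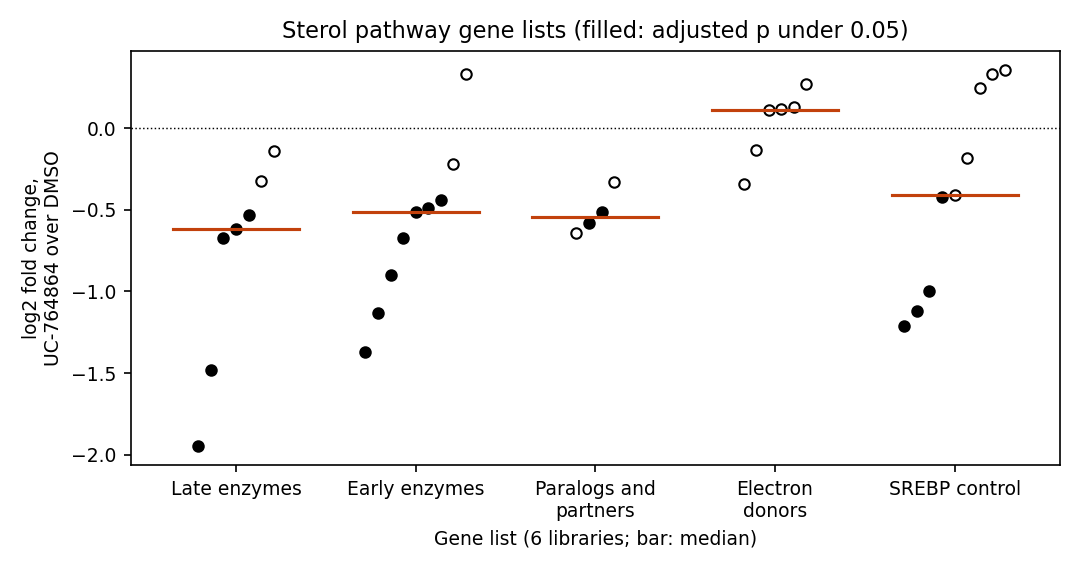
Log2 fold change (UC-764864 over DMSO, 6 libraries) of each tested gene in 5 lists, with filled points for adjusted p under 0.05 and a bar at the list's median. Late enzymes, early enzymes and SREBP control genes have medians of −0.62, −0.51 and −0.41, and the electron donors one of 0.12.

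The genes whose levels over the 6 libraries were most like the mean profile of the 7 late enzymes were looked for among 9871 other genes whose mean reached 5 CPM. MVD came first, with a Pearson r of 0.9962. FADS2, a fatty acid desaturase, followed at 0.9948, then ACAP1 at 0.9947, NCF1C at 0.9938 and HLA-E at 0.9933. NCF1C is a near-identical copy of another gene, so its count is uncertain. Late enzymes themselves ranged from 0.4461 for CYP51A1 to 0.9892 for LSS. Each of them is part of that mean profile, which raises its value, so these are not on a par with those of other genes. With 6 libraries in 2 groups that share depth and GC differences, these values describe a common order and are given with no test.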

How the data were processed

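Values are the raw counts that the authors deposited, whole numbers of reads for each gene symbol and library. FastQC 0.11.7, HISAT2 2.0.5, featureCounts 1.5.2 and GRCh37 are named, without roles, in the submitters' processing notes. For annotation release and strand setting, no statement is given in the sources used here. Columns were assigned to treatments from the sheet deposited with the counts, which numbers no replicates, and were not paired.

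Counts were tested in R 4.3.3 with edgeR 4.0.16 (filterByExpr, TMM factors, glmQLFit and glmQLFTest, treatment as the only term, Benjamini-Hochberg, adjusted p under 0.05). One fit used the 52839 rows that all 6 libraries hold, and another all rows with the 5 libraries other than UDI0055. Standard errors are the log2 fold change over the square root of F, and 95% intervals use the fit's degrees of freedom. CPM and RPKM use TMM-scaled library sizes, so CPM differ between the fits. Exon lengths, GC contents and overlaps come from GENCODE 29, which is GRCh38 and matched 86.4% of tested genes by symbol, and the Pearson values use log2 CPM with a prior count of 2. Alternatives were RLE factors, library size only, no filter, DESeq2 1.42.0, a lowess GC trend removed per library, each library left out, UDI0052 and UDI0056 left out, and rows as deposited. On simulated counts of 13490 genes for the 6 libraries, 84 of 100 genes changed 2-fold and 32 of 100 changed 1.5-fold were recovered. For the 5 libraries, with 14186 genes, 72 and 30 of 100 were. The simulation drew each gene on its own, without the GC differences between libraries, so recovery in the real libraries was not tested.

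Named genes are the 9 enzymes, genes of the 4 pathway lists that passed and up to 3 others per list by p, the 5 most alike in profile, and copies or overlapping genes of an enzyme. The enzymes and lists were chosen with earlier results of these data known. Some listed genes are counted with their list and not reported here by name.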

Additional observations from a re-analysis of the deposited data

How the results depend on the processing

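No paired analysis was possible because the count columns carry no replicate numbers. Among the 7 late enzymes in 6 libraries, 79 of 91 recomputed values kept direction and side of the threshold, 10 lost the call, 1 gained it and 1 turned sign (CYP51A1, −0.40 to 0.06 with each library left out, 0.06 without UDI0052). The number of the 7 that fell, 5, ranged from 2 to 6 with each library left out and was 1, MSMO1, with rows as deposited, where the others that had fallen had adjusted p from 0.0527 to 0.0557 (MSMO1 0.0442). None rose under any alternative. The number of NSDHL and EBP that fell, 0, was 2 with the GC trend removed and 1 without UDI0052 and UDI0056, and stayed 0 with each library left out. With rows as deposited, zeros counted, they turned to 0.57 and 0.32. In the 5-library fit NSDHL ranged from −0.05 to 0.00 and CYP51A1 from −0.33 to 0.28 with each further library left out (0.15 without UDI0052, 0.28 without UDI0054), and CYP51A1 was 0.07 with the GC trend removed. Without UDI0054 or UDI0056 that fit has 1 DMSO library, assumed to vary like the others.

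Of other sterol genes, 13 lower, the count ranged from 6 to 14 with each library left out and was 3 with rows as deposited, and higher calls ranged from 0 to 2 and were 2, PMVK and SCAP, with the GC trend removed. POR ranged from −0.03, without UDI0056, to 0.26 and CYB5R1 −0.02 with the GC trend removed. Over all genes in 6 libraries, 1097 were lower and 690 higher. With each library left out these were 278 to 1729 and 62 to 1525, with rows as deposited 125 and 22, with the GC trend removed 1798 and 1872, and with no filter 1676 lower. In the 5-library fit, 1974 and 1401, they were 927 to 2557 and 339 to 1939 with each further library left out. Rows as deposited gave 125 and 22 there, and higher calls were 2675 with the GC trend removed and 2471 without UDI0052 and UDI0056. Counts with the GC trend removed cover only genes of known GC content, 11653 of 13490 in 6 libraries and 12221 of 14186 in 5. Rises, 38.6% of calls, were 16.5% to 46.9% with each library left out and 15.0% with rows as deposited. The cause of these shifts in the number of calls was not tested. CYP51A1 had the fewest counts, 78 to 245 a library, for a counting error of 6.39% to 11.3%, and its spread within groups was larger, with coefficients of variation of 35.9% and 22.5%.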
